A study of Mus musculus with 19 samples.

Results

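Embryo-derived Kupffer cells were compared across all genes between mice on chow and mice on the MCD diet, a feed without methionine and choline. The comparison takes the 6 libraries labelled MCD_EmKCs and the 6 labelled Chow_EmKCs, which are 12 of the 19 samples of the study, chosen by their labels and not by any measured value. Both groups were sorted from digested livers of female C57BL/6 mice as CLEC2+ TIMD4+ cells, and RNA was amplified by the Smart-seq method and sequenced. The series gives 4 weeks of feeding for the MCD diet, and the chow labels carry no duration. No source used here gives the age of the mice or the number of animals behind each library, so every p-value measures the spread between libraries, which may be technical. The remaining 7 samples, Kupffer cells of monocyte origin from the same diet, were not used.

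Kupffer cells are the macrophages that line the liver sinusoids. Most are seeded before birth, renew themselves, and clear particles, lipoproteins and dying cells from the blood, and they carry CLEC2 (gene Clec1b), TIMD4 and CLEC4F on their surface. The MCD diet withholds the precursors that hepatocytes need to export fat as lipoprotein, and livers on it accumulate fat and become inflamed. Macrophages in fat-laden tissue are known for a lipid-associated program, with GPNMB, TREM2, CD9, CD36 and CD63 among its markers, and for expanded lysosomes.

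Values are reads per gene scaled to a common depth by the submitters, called normalised reads here. For single genes, 3 values in a row are the lowest, the median and the highest of 6 libraries. Differences are log2 fold changes of MCD_EmKCs over Chow_EmKCs, on log2(value + 1), with their standard error (SE), and each adjusted p is from limma, adjusted by Benjamini-Hochberg across every gene in the fit. A gene is said to have risen or fallen when its adjusted p is under 0.05. Levels are compared between groups for a gene and not between genes, since the values are not scaled by transcript length. In such bulk samples, fewer cells of a type and less RNA per cell cannot be told apart.

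The 12 libraries held 15190337 to 27401870 reads (15190337 to 27401870 on chow, 17370767 to 26884854 on MCD), and 14643 to 16819 genes had at least 1 read. Timd4, a gene of the sort gate, had 8423, 10014 and 13558 normalised reads on chow and 6584, 7509.5 and 8501 on MCD (log2 -0.48 ± 0.14, adjusted p = 0.0633), and Clec1b, the other, had 5903, 6360.0 and 7869.6 and 6037, 7097 and 8007 (log2 0.08 ± 0.13, adjusted p = 0.796). The 8 Kupffer cell markers fixed for the check (Clec4f, Timd4, Vsig4, Clec1b, Cd5l, Folr2, Marco and Adgre1) had at least 3832 normalised reads in each of the 12 libraries. On the first principal component, which held 20.1% of the variance, chow libraries lay between -55.1 and -36.0 and MCD libraries between 12.8 and 120.2. MCD_EmKCs 1 and 2 stood apart from the other MCD libraries there and on the second component, and had the fewest genes detected, 14643 and 15063. Counts that lead the text are given without them too.

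Of 13740 genes tested, 304 rose (2.21% of genes tested) and 231 fell (1.68%) in MCD_EmKCs. Among them, 182 rose and 146 fell by at least 2-fold, and 69 rose and 83 fell by at least 4-fold. The median log2 fold change of all genes tested was -0.03. The ranges of the 6 and 6 libraries did not overlap for 187 of the genes that rose and 141 of those that fell, against 227 (1.65%) and 200 (1.46%) of all genes tested with MCD_EmKCs wholly above or wholly below. Leaving out each of the 12 libraries in turn, 168 of the 304 rises and 116 of the 231 falls passed the threshold every time. Without MCD_EmKCs 1 and 2, 178 of the rises and 150 of the falls still passed, among 198 and 177 in that fit, in which 15 of the rises were below the filter on low values and not tested. In the fits that left out 1 library, 9 of the rises and 11 of the falls were below it at least once and are not among those counted. Without Chow_EmKCs 1, 144 genes fell.

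**Figure D1:**
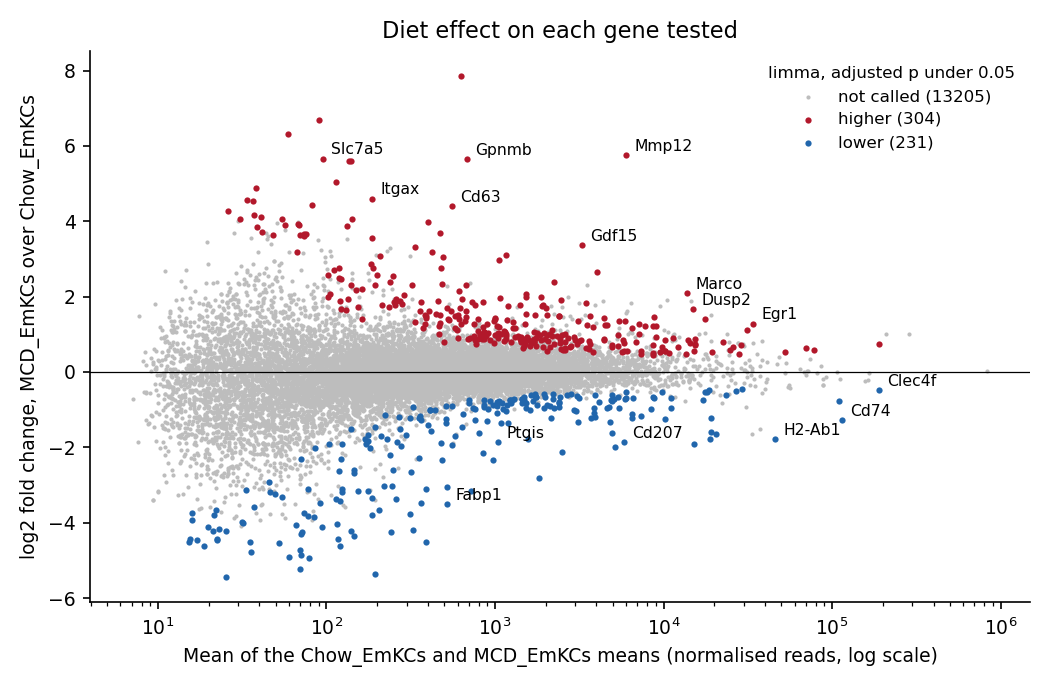
Each point is 1 of 13740 genes, with the mean of both group means in normalised reads on the x axis (log scale) and the log2 fold change of MCD_EmKCs over Chow_EmKCs on the y axis. Red points are the 304 genes that rose and blue points the 231 that fell at a limma adjusted p under 0.05. The genes of largest fold lie at low to middle levels, and several abundant genes, such as H2-Ab1 and Marco, changed by about 2 log2 units.

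The sample descriptions carry library numbers, and the numbers up to 33 and from 37 form 2 sets with 3 libraries of each diet in each. What the numbers stand for is not given. The sets share no library, so each was compared with the other. Of 72 genes that rose within the first set, 67 had the same sign in the second and 37 rose there as well. Of 42 that fell, 41 had the same sign and 23 fell. In the opposite direction, 121 of 129 rises of the second set were positive in the first, and 86 of 105 falls tested there were negative. Over all genes tested in both sets, 57.9% had the same sign. The median log2 fold change of the 72 rises was 1.99 in the first set and 1.25 in the second. A test of whether the diet effect differed between the sets called 0 genes with limma and 0 with edgeR, and 1281 had an unadjusted limma p under 0.05. DESeq2 on the same reads called 157. Without MCD_EmKCs 3 the limma count was 79, and without MCD_EmKCs 2 it was 1.

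**Figure D2:**
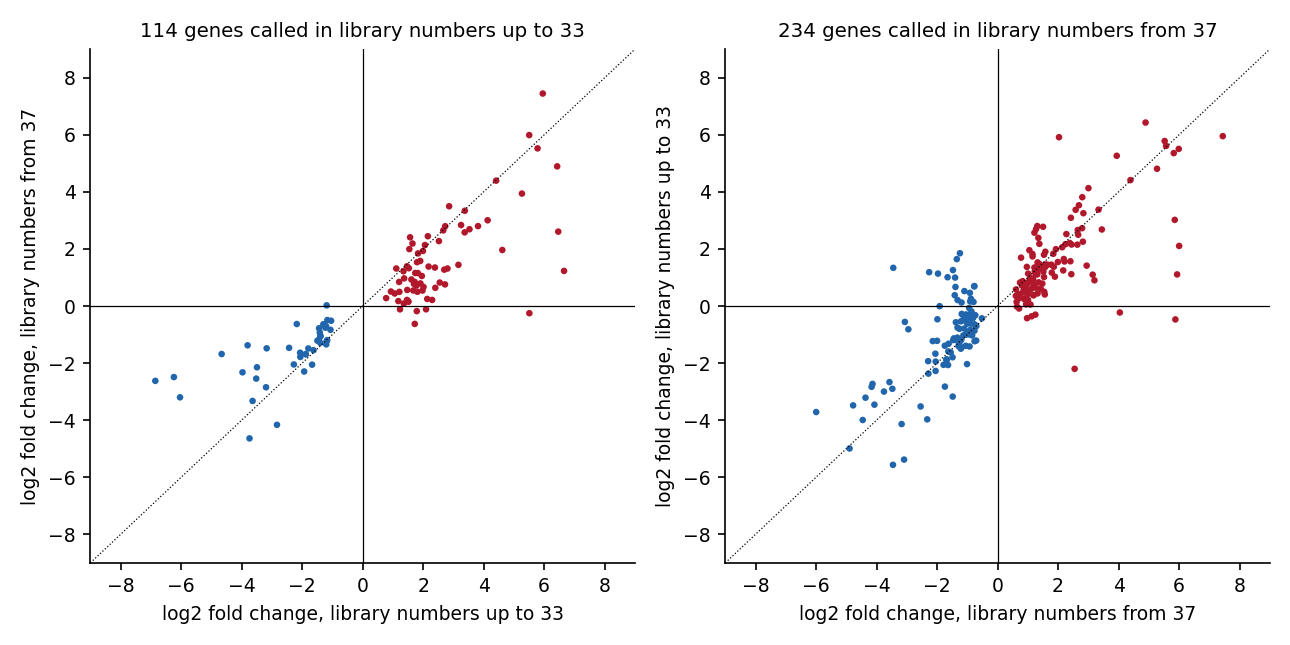
Left: genes called within the libraries numbered up to 33, with their log2 fold change there (x axis) and in the libraries from 37 (y axis). Right: genes called from 37 and tested in both sets, with the axes exchanged. Red genes rose and blue genes fell in the set on the x axis, and the dotted line marks equal change. Of the 72 red genes at left, 67 lie above 0 in the other set, and of the 42 blue genes 41 lie below 0.

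The steadiest rise belonged to Gdf15, which encodes a circulating stress hormone of the TGF-beta superfamily (chromosome 8, 70629393 to 70632456 on mm10). It had 479, 605 and 665 normalised reads in Chow_EmKCs and 5260.0, 6001 and 6341 in MCD_EmKCs. The log2 fold change was 3.36 ± 0.15 (SE, adjusted p = 7.5e-11), with 3.38 in the first set of libraries and 3.34 in the second. Every MCD library was several times higher than any chow library.

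Next in order of the test statistic came Mmp12, the macrophage elastase (chromosome 9, 7344381 to 7369499), with 114, 220.2 and 442 normalised reads on chow and 7593, 11370.5 and 17394 on MCD. Its log2 fold change of 5.75 ± 0.30 (adjusted p = 1.64e-09) was the largest among the 10 highest test statistics. Gpnmb, a transmembrane glycoprotein of lysosome-rich macrophages (chromosome 6, 49036546 to 49070929), had 8.91, 27.9 and 45.9 reads on chow and 773, 1344 and 1757 on MCD, a log2 fold change of 5.65 ± 0.38 (adjusted p = 4.79e-08). For both genes the diets were widely apart.

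Surface receptors were among the 10 as well. Marco, a scavenger receptor that binds bacteria and particles, had 3832, 5108 and 7666 normalised reads on chow and 17877, 21723 and 28448 on MCD, and rose by 2.10 ± 0.16 on the log2 scale (adjusted p = 1.47e-07). Colec12, a scavenger receptor with a collectin domain, had 1027, 1575 and 1826 on chow and 4009.7, 5655 and 5985 on MCD and rose by 1.84 ± 0.17 (adjusted p = 1.29e-06). Cd36, which takes up long-chain fatty acids and oxidised lipoproteins, had 658, 1185 and 1423 on chow and 4853, 7112 and 8652 on MCD. Its log2 fold change was 2.66 ± 0.20 (adjusted p = 1.47e-07). None of these 3 receptors overlapped between the diets.

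The others of the 10 were Cd63, Dusp2, Fam20c and Plk2. Dusp2, a phosphatase that switches off MAP kinases, had 5869.7, 6785 and 9017 on chow and 20237, 22819 and 25116 on MCD (log2 1.67 ± 0.13, adjusted p = 2.49e-07). Fam20c, the kinase that phosphorylates secreted proteins in the Golgi, had 115, 254 and 342 on chow and 1419, 1989 and 2831 on MCD (log2 3.11 ± 0.26, adjusted p = 3.95e-07). Plk2, a stress-inducible polo-like kinase, had 450.0, 736 and 943 on chow and 2646, 3818 and 5029.8 on MCD (log2 2.40 ± 0.20, adjusted p = 4.46e-07). Cd63, a tetraspanin of late endosomes, had 22.9, 52.6 and 64.6 on chow and 812, 939 and 1788 on MCD (log2 4.40 ± 0.32, adjusted p = 1.47e-07). Its pseudogene Cd63-ps rose too (log2 3.57 ± 0.51), and reads of the pair may have been split, so the levels of both are uncertain.

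**Figure D3:**
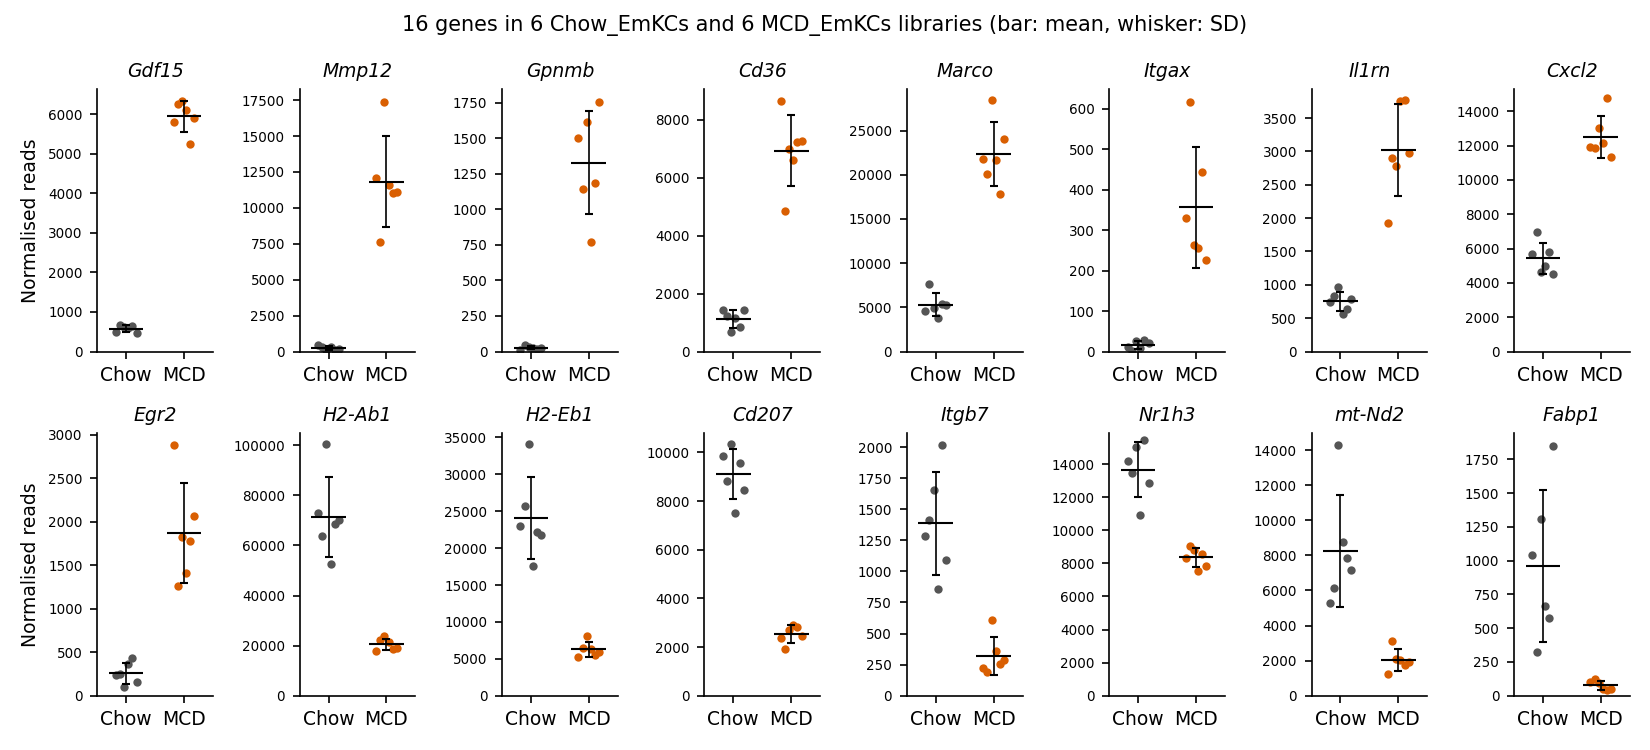
Normalised reads (y axis, linear and from 0, with its own scale per gene) of 16 genes in each Chow_EmKCs (grey) and MCD_EmKCs (orange) library. The bar is the mean and the whisker the SD of 6 libraries. The first 9 panels, from Gdf15 to Egr2, show genes that rose and the last 7 genes that fell, and in none of the 16 does a chow library lie within the MCD range.

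The lipid-associated macrophage list, like the other lists below, was drawn up with earlier results of these data known. Counts in each list stand against the 2.21% of all genes tested that rose and the 1.68% that fell. Of the 20 lipid-associated macrophage genes, all tested, 10 rose (50%) and 0 fell. On leaving out each library 9 of the 10 passed, and the median log2 fold change was 0.79 against -0.03 for all genes. Beyond those above, Cd9, a tetraspanin, had 66.3, 99.5 and 149 on chow and 445, 919 and 1286 on MCD (log2 3.05 ± 0.31, adjusted p = 6.2e-06). Itgax, the CD11c integrin chain, was near absent on chow at 1.86, 17.03 and 29.2 and stood at 226, 297 and 618 on MCD (log2 4.604 ± 0.57, adjusted p = 7.15e-05). Trem2, a lipid-sensing receptor, had 455, 615 and 883 on chow and 1849.7, 2024 and 2703 on MCD (log2 1.77 ± 0.20, adjusted p = 2.67e-05). For these 3 genes no MCD library fell within the chow range.

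The same list holds lipid handling genes. Lpl, the lipase that frees fatty acids from lipoproteins, had 8224, 10531 and 14476 on chow and 16352, 19789.8 and 22688 on MCD (log2 0.87 ± 0.15, adjusted p = 0.00246). Plin2, which coats lipid droplets, had 4999, 6945 and 7564 on chow and 9742, 10374 and 13493 on MCD (log2 0.71 ± 0.14, adjusted p = 0.00559). Both kept the diets apart. Apoe, the main apolipoprotein of macrophages, did not pass, with 631261, 766048 and 1239700.0 on chow and 614708, 852526 and 1082000.0 on MCD (adjusted p = 0.933). Spp1, osteopontin, was spread from 0 to 52.5 on chow and from 1.29 to 546 on MCD and did not pass either (adjusted p = 0.282).

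Among 22 lipid droplet and triglyceride enzymes, 2 rose (9.09%, against 2.21% of all genes tested) and 0 fell. These were Plin2 and Hilpda, an inhibitor of lipolysis, with 1260.5, 2038 and 2589 on chow and 4479.6, 5382 and 6911 on MCD (log2 1.48 ± 0.19, adjusted p = 9.07e-05). Angptl4, a fatty acid-induced inhibitor of lipoprotein lipase, was the 1 rise among 28 fatty acid oxidation and PPAR target genes, with 60.6, 209 and 314 on chow and 529.5, 646 and 1022 on MCD (log2 1.88 ± 0.35, adjusted p = 0.00392). Ucp2 was the 1 fall, so each direction held 3.57% of that list, against 2.21% and 1.68% of all genes tested. Of 19 cholesterol synthesis genes 1 rose (5.26%) and of 12 fatty acid synthesis genes 1 rose (8.33%), and none fell. Neither of those calls passed on leaving out each library. The 19 LXR target and sterol efflux genes had 2 rises and 1 fall and a median of -0.03.

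The fall was Nr1h3 itself, which encodes LXR-alpha, a nuclear receptor that senses oxysterols and maintains Kupffer cell identity. It had 10950.0, 13834 and 15467 on chow and 7559, 8462 and 9037 on MCD, a log2 fold change of -0.70 ± 0.12 (adjusted p = 0.0019). Pparg, a nuclear receptor that senses fatty acids, moved the other way, with 168, 334 and 653 on chow and 646, 841 and 1151 on MCD (log2 1.39 ± 0.29, adjusted p = 0.0078). The chow libraries did not overlap the MCD libraries for Nr1h3, and for Pparg the highest chow library lay just above the lowest MCD library. Among 20 transcription factors of Kupffer cells tested, 2 rose and 2 fell (10% each, against 2.21% and 1.68% of all genes tested). The others were Atf3 and Irf7, and those 2 did not pass on leaving out each library.

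Of 41 lysosomal genes tested, 5 rose (12.2%, against 2.21% of all genes tested) and 0 fell. Positive fold changes were seen for 32, with a median log2 fold change of 0.15. Ctsd, the aspartic protease cathepsin D, had 41035, 56057 and 62466 on chow and 76869.8, 81834 and 98102 on MCD (log2 0.64 ± 0.12, adjusted p = 0.00294). Gusb, a glucuronidase, had 2942, 3666 and 4336 on chow and 4828, 6354 and 6493 on MCD (log2 0.73 ± 0.14, adjusted p = 0.00456). Subunits of the proton pump that acidifies lysosomes rose too. Atp6v0a1 had 401, 611 and 969 on chow and 1009.9, 1399 and 2007 on MCD (log2 1.20 ± 0.25), and Atp6v1b2 had 4390.5, 5052 and 5203 on chow and 6584, 7045 and 8538 on MCD (log2 0.55 ± 0.12). The libraries of these 4 genes did not overlap between the diets.

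The fifth rise was Gla, a galactosidase of glycolipid breakdown, with 74.6, 280.2 and 621 on chow and 708, 794 and 2834 on MCD (log2 1.86 ± 0.45, adjusted p = 0.0257). MCD_EmKCs 1 was far above the other MCD libraries, and the call was lost without Chow_EmKCs 2 or 4 (adjusted p up to 0.0601) and without MCD_EmKCs 1 and 2 together (0.0681). Its promoter is shown because lysosomal genes are known to be bound by TFEB-type factors at the E-box CACGTG. The 130 bases before its annotated gene (RefSeq, GRCm38.p6, minus strand, chrX:134601126-134601255) hold 2 such matches, beginning 227 and 194 bases before the RefSeq start, in capitals.
Gla: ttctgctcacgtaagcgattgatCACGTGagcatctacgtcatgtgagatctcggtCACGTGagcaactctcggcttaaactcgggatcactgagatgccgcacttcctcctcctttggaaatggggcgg
CACGTG was searched on both strands in windows of 300 bases, 250 before and 50 after the first start listed for a gene. It was in 10 of the 30 lysosome genes tested and matched to a promoter, 33.3%, whether or not they rose. The motif is not particular to that list, being in 4 of 8 matched immediate-early and heat-shock genes that rose, 50%. Among all genes tested and matched (9548) the share was 10.3%. The 213 genes that rose and had a matched promoter held it at 12.7% and the 163 that fell at 3.68%. A match is a description of the letters and not a measured site.

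Of 14 genes of osteoclasts and of cell fusion tested, 4 rose. Dcstamp, which drives the fusion of macrophages, had no read in any of the 6 chow libraries and 32.99, 60.7 and 368 normalised reads on MCD (704 reads in all), at least 221-fold higher against a floor of 3 reads over the chow group. MCD_EmKCs 2 held the most of these, and without it the other 5 MCD libraries had 360 reads, at least 136-fold higher. Dcstamp passed the filter on low values through its MCD libraries alone, so only a rise could be called. Ocstamp, its partner, had 0, 3.65 and 72.0 on chow and 90.6, 239 and 449.8 on MCD (log2 5.59 ± 0.99, adjusted p = 0.00253). The edgeR test on reads gave it an adjusted p of 0.0643, which does not pass. Sirpa, a receptor for the CD47 signal that also acts in fusion, had 16894, 20066 and 23641 on chow and 23903, 32106 and 39883 on MCD (log2 0.65 ± 0.13, adjusted p = 0.0078, and 0.0605 without MCD_EmKCs 1 and 2). No gene of the list fell, and the median was 0.45, the same with Dcstamp at its bound.

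Of 17 scavenger and lipoprotein receptors 5 rose and 0 fell. Sort1, a sorting receptor for lysosomal and lipoprotein cargo, was at 0, 3.43 and 35.0 on chow and 75.0, 184 and 527 on MCD (log2 5.04 ± 0.85, adjusted p = 0.00172). Low chow values make the size of this fold depend on the pseudocount. Mrgpre and Vsig8, named after their values were seen, also had large fitted changes, which are not ranked here. Mrgpre, a Mas-related G-protein-coupled receptor, had 0, 0.932 and 102 on chow and 169, 763 and 3201 on MCD, and Vsig8, an immunoglobulin-domain protein, had 0, 0 and 4.34 on chow and 103, 174 and 265 on MCD. Reads were 0 in 2 and 4 of the chow libraries for these genes. Vsig8 stayed under the filter value of 10 on chow, and Mrgpre reached it only in Chow_EmKCs 6. Both entered the fit through their MCD libraries, so only a rise could be called. The 18 genes of apoptotic cell uptake tested had 0 rises and 0 falls with limma, with 13 positive and a median of 0.23. In that list 3 had an unadjusted p under 0.05, edgeR called 0 and DESeq2 called 1.

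Some stress genes rose. Slc7a5, a carrier of large neutral amino acids including methionine, had 0, 3.02 and 21.9 on chow and 111, 179.9 and 243 on MCD (log2 5.66 ± 0.80, adjusted p = 0.000299). Of 18 amino acid transporters tested 16 were positive, 2 rose and 0 fell, and the median was 0.42. The second rise, Slc3a2, the partner chain of that carrier, did not pass on leaving out each library. Of 21 integrated stress response genes 4 rose and 1 fell, with a median of 0.22. Gdf15 belongs to this list. Ppp1r15a, the phosphatase subunit that restores translation after stress, had 16213, 20539.8 and 33045 on chow and 31093, 36137 and 38318 on MCD (log2 0.72 ± 0.14, adjusted p = 0.00582). Ddit4, an inhibitor of mTORC1, had 35.0, 147 and 313 on chow and 307, 574 and 715 on MCD (log2 1.86 ± 0.44, adjusted p = 0.0198, and 0.095 without MCD_EmKCs 1 and 2). Both ranges touched between the diets. Atf4, the central transcription factor of the response, had 1457, 2143 and 2322 on chow and 2008, 3201 and 3712 on MCD and did not pass (adjusted p = 0.168).

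In the unfolded protein response, 21 of 23 genes were positive, 2 rose (8.7%, against 2.21% of all genes tested) and 0 fell. The rise that passed on leaving out each library was Eif2ak3, the sensor kinase PERK, with 403, 566 and 721 on chow and 831, 1083 and 1707 on MCD (log2 1.05 ± 0.22, adjusted p = 0.00914). Of 25 NRF2 and glutathione genes 6 rose and 0 fell, and the median was 0.11. Txnrd1, thioredoxin reductase, had 3059, 4152 and 4987 on chow and 6054, 7233 and 9337 on MCD (log2 0.84 ± 0.16). Srxn1, which repairs oxidised peroxiredoxins, had 389, 524 and 751 on chow and 879.7, 1057 and 1319 on MCD (log2 0.99 ± 0.21). Neither gene overlapped. Hmox1, heme oxygenase and another NRF2 target, had 9943, 15271 and 17869 on chow and 19069.7, 19793 and 24940.3 on MCD and missed the threshold (adjusted p = 0.0619).

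Since the diet lacks methionine and choline, the genes of those pathways were read as a list. Of 37 tested, 2 rose, 4 fell and the median was 0.04. Srm, which makes spermidine from decarboxylated S-adenosylmethionine, had 460.0, 572 and 631 on chow and 627, 1095 and 1213 on MCD (log2 0.88 ± 0.20, adjusted p = 0.017). Mthfd2, a mitochondrial folate enzyme, rose (log2 1.67 ± 0.45, adjusted p = 0.0459). The falls were Gnmt (log2 -1.96 ± 0.50, adjusted p = 0.0318), Mat1a (log2 -2.33 ± 0.58, adjusted p = 0.0319), Bhmt (log2 -1.86 ± 0.49, adjusted p = 0.0378) and Shmt2 (log2 -1.01 ± 0.28, adjusted p = 0.0467). Gnmt consumes S-adenosylmethionine, Mat1a makes it, and Bhmt remethylates homocysteine with betaine. Leaving out any 1 of the 12 libraries ended between 1 and 5 of the 5 calls other than Srm, and the adjusted p of Shmt2 reached 0.116.

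Gnmt, Mat1a and Bhmt are textbook hepatocyte genes, and hepatocyte markers moved with them. Of 23 markers tested 14 fell, 0 rose, none was positive, and the median was -2.59. Summed without Trf, which Kupffer cells also express, the markers had 5923 to 19585 normalised reads in Chow_EmKCs and 1299 to 6085 in MCD_EmKCs. Fabp1, the liver fatty acid-binding protein, had 326, 853 and 1853 on chow and 44.8, 74.7 and 125 on MCD (log2 -3.50 ± 0.41, adjusted p = 3.36e-05). Apoa1 had 557, 1283 and 1899.9 on chow and 42.7, 132 and 364 on MCD (log2 -3.15 ± 0.41), and Alb 1320.3, 2825 and 5389 on chow and 263, 305 and 1704 on MCD (log2 -2.82 ± 0.45). The markers' share of library reads was 0.242 ± 0.0494% (SD, n = 6) on chow and 0.13 ± 0.02% (n = 6) on MCD (exact permutation p = 0.00216, the smallest possible, and 0.0108 adjusted over 15 shares). Most of that share was Trf, at 0.176% on chow and 0.117% on MCD. Without Trf, a choice made after seeing the data, the share was 0.0654 ± 0.0293% (n = 6) and 0.0127 ± 0.0106% (n = 6), with ranges of 0.0356 to 0.110% and 0.00576 to 0.0342% (exact permutation p = 0.00216, adjusted 0.0108). In normalised reads the ranges of the same sums overlapped slightly, as given above. The part of hepatocyte RNA in the falls of the methionine genes was not tested. The 83 genes that fell by at least 4-fold, 11 of them hepatocyte markers, took together 0.165% of reads on chow and 0.0253% on MCD. The 148 genes that fell by less took 7.37 ± 0.347% and 3.74 ± 0.489%, so the larger part of the lost reads came from abundant genes of modest fold.

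Several inflammatory ligands rose, agonists and an antagonist among them. Of 21 cytokines tested 7 rose, 1 fell and the median was 0.38. Il1rn, the natural antagonist of the IL-1 receptor, had 563, 764 and 967 on chow and 1934, 2935 and 3773 on MCD (log2 1.99 ± 0.19, adjusted p = 3.57e-06). Il1a, an agonist of the same receptor, had 2985, 5484 and 7772 on chow and 10462, 11136 and 15894 on MCD (log2 1.22 ± 0.20, adjusted p = 0.00132). The ranges were separate for both. Il1b, the other agonist, had 13464, 26322 and 37088 on chow and 20193, 25426 and 29381 on MCD, and its difference of -0.02 ± 0.19 did not pass (adjusted p = 0.98).

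Tnf, the tumour necrosis factor gene, had 601, 874 and 1858 on chow and 3113, 3787 and 4884 on MCD (log2 1.92 ± 0.23, adjusted p = 5.17e-05). Il12b, a subunit of IL-12 and IL-23, had 23.6, 35.7 and 65.6 on chow and 88.6, 159.7 and 290.2 on MCD (log2 2.00 ± 0.44, adjusted p = 0.0129, and 0.0501 without MCD_EmKCs 1 and 2). The 1 fall was Il15, which sustains NK and memory T cells, with 889.6, 1192 and 1589 on chow and 443, 608 and 732 on MCD (log2 -0.99 ± 0.20, adjusted p = 0.00647). No library of one diet entered the range of the other for these 3 genes. Tnfsf9, the ligand 4-1BBL, had 14.9, 40.8 and 153 on chow and 182, 358 and 568 on MCD (log2 3.07 ± 0.53), and Vsir, the checkpoint protein VISTA, had 3034, 3783 and 4933 on chow and 1249, 2049 and 2955 on MCD (log2 -0.9995 ± 0.20, adjusted p = 0.00549).

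Chemokines formed the list with the highest median, 0.98, among the 52 program lists, with 8 of 23 members higher and 0 lower. Coagulation and fibrinolysis genes came next at 0.94, with 2 of 15 higher and 1 lower. This order only describes lists chosen with earlier results of these data known. Ccl2, which draws monocytes, had 146, 201 and 359 on chow and 917, 1007 and 1435 on MCD (log2 2.30 ± 0.25, adjusted p = 1.85e-05). Ccl7, a second ligand of the same receptor, had 32.3, 52.6 and 255 on chow and 300.4, 398 and 547 on MCD (log2 2.54 ± 0.44, adjusted p = 0.0023). Cxcl2, which draws neutrophils, had 4541, 5344 and 6940.1 on chow and 11314, 12042 and 14779.8 on MCD (log2 1.21 ± 0.13, adjusted p = 1.85e-05). The remaining rises that passed on leaving out each library were Ccl4 (log2 1.43 ± 0.16), Ccl9 (log2 1.43 ± 0.22) and Pf4 (log2 1.46 ± 0.30). Ranges were separate for all 6. Pf4 is also a platelet marker, and the platelet and megakaryocyte share of reads was 0.0393% on chow and 0.0425% on MCD (exact permutation p = 0.305, adjusted 0.455). Most of that share was Clec1b, a gene of the sort gate that Kupffer cells express, so it says little about platelets. Ppbp, Gp9, Gp1ba and Tubb1 of that list had too few reads to be tested. The part of platelet RNA in the Pf4 difference was not tested. On the receiving side, Ccrl2, a non-signalling receptor that presents chemerin, was the 1 rise among 9 chemokine receptors, with 4106, 4892 and 6167 on chow and 7237, 8641 and 10228 on MCD (log2 0.80 ± 0.14, adjusted p = 0.00234).

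The promoter of Cxcl2 is shown for the NF-kB motif GGANNNTCC, searched on both strands. RefSeq (GRCm38.p6, plus strand, chr5:90903649-90903870) gives 1 match in the 222 bases before the annotated gene, beginning 96 bases before the RefSeq start, in capitals.
Cxcl2: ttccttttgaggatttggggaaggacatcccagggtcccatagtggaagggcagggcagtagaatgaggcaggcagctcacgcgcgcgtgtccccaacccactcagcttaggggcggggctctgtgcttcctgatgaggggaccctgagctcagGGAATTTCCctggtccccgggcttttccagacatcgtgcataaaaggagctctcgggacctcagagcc
The motif was in 3 of the 5 chemokine genes that rose and had a matched promoter, and in 10.1% of all genes tested and matched, 10.3% of those that rose and 9.82% of those that fell.

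Some feedback inhibitors of NF-kB rose. Tnfaip3, the deubiquitinase A20, had 4199, 11153 and 12264 on chow and 18724, 24364 and 31944 on MCD (log2 1.40 ± 0.23, adjusted p = 0.00174). Nfkbiz, an inducible nuclear IkB protein, had 4208, 8576 and 9741 on chow and 10581, 15882 and 17241 on MCD (log2 0.91 ± 0.19, adjusted p = 0.0091). Both were separate between the diets. In all 4 of 24 genes of the list rose (2 without MCD_EmKCs 1 and 2), 0 fell, 20 were positive, and the median was 0.31. Of 22 pattern recognition receptors 3 rose and 0 fell, among them Clec7a, the beta-glucan receptor Dectin-1, with 3166, 4209 and 5269 on chow and 5749, 6659 and 7223 on MCD (log2 0.70 ± 0.14, adjusted p = 0.0077).

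Inflammasome genes split. Nlrp3, the sensor, had 416, 938 and 1379 on chow and 1432, 2115 and 2959 on MCD (log2 1.27 ± 0.25, adjusted p = 0.00574). Gsdmd, whose cleaved form makes the pore of pyroptosis, had 3978, 6147 and 7646 on chow and 3326, 3639 and 3874 on MCD (log2 -0.73 ± 0.15, adjusted p = 0.0078). Txnip, a thioredoxin-binding arrestin, had 5568, 6723 and 9769.6 on chow and 2939, 3863 and 4214 on MCD (log2 -0.96 ± 0.15, adjusted p = 0.00104). So 1 of 20 rose (5%, against 2.21% of all genes tested) and 2 fell (10%, against 1.68%), each with separate ranges. A list this small cannot separate 1 call from those shares. The median of the list was -0.15, and 14 of the 20 were negative.

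Immediate-early and heat-shock genes had 12 rises and 0 falls among 25 tested, with a median of 0.67. Egr2, a zinc-finger factor of activated macrophages, had 101, 241 and 434 on chow and 1260.4, 1802 and 2876 on MCD (log2 2.98 ± 0.32, adjusted p = 1.21e-05). Egr1, its relative, had 13925, 19793 and 26926 on chow and 40138, 49192 and 55491 on MCD (log2 1.28 ± 0.14, adjusted p = 1.94e-05). Myc, a growth regulator, had 855, 1140.5 and 1818 on chow and 2116, 2232 and 2748 on MCD (log2 1.03 ± 0.18, adjusted p = 0.00286). Those 3 had separate ranges. Dusp5 (log2 3.18 ± 0.59), Ier2 (log2 0.75 ± 0.15) and Nr4a1 (log2 0.71 ± 0.16, adjusted p = 0.0162, and 0.0627 without MCD_EmKCs 1 and 2) rose as well. Fos, the partner of Jun in AP-1, had 56978, 74505 and 86327 on chow and 61208, 73520.2 and 80828 on MCD and did not pass (log2 0.02 ± 0.12, adjusted p = 0.951). Genes of this kind are known to respond to tissue digestion, which all libraries went through, and its part here was not tested.

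In reads moved, the largest rises were Dusp1, Jun, Ctsd, Egr1, Vcam1, Lgmn, Marco and Dusp2. Dusp1, a MAP kinase phosphatase and glucocorticoid target, had 114370.0, 139617 and 171352 on chow and 166364, 219872 and 353068 on MCD (log2 0.75 ± 0.15, adjusted p = 0.00721). Jun, an AP-1 subunit, had 49978, 59859 and 76954 on chow and 74698, 94556 and 106372 on MCD (log2 0.60 ± 0.12, adjusted p = 0.0077). The diets overlapped slightly for both. Reads of Jun and of its antisense neighbour Junos, which rose with it (log2 0.58 ± 0.13, adjusted p = 0.0164, and 0.0547 without MCD_EmKCs 1 and 2), cannot be told apart where the counting did not use strand, which is not given. Lgmn, the lysosomal protease legumain, had 35205, 40253 and 62227 on chow and 49085, 61037 and 76369 on MCD (log2 0.53 ± 0.15, adjusted p = 0.0479). Its call was lost on leaving out any library but Chow_EmKCs 6 or MCD_EmKCs 5, with adjusted p up to 0.112.

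Some genes that follow daily or hormonal cues rose. Of 19 glucocorticoid response genes 5 rose (26.3%, against 2.21% of all genes tested). A fall was called for 1 of them (5.26%, against 1.68%), and the median was 0.75. Sgk1, a serum- and glucocorticoid-regulated kinase, had 9252, 10610.3 and 12549 on chow and 13705, 18428 and 21486 on MCD (log2 0.76 ± 0.13, adjusted p = 0.00161). Of 18 clock genes, 2 rose (11.1%) and 0 fell. Bhlhe40, a repressor within the clock and in macrophages, had 388, 666 and 831 on chow and 1338, 1755 and 1913 on MCD (log2 1.39 ± 0.20, adjusted p = 0.000331). Nfil3, another repressor, had 57.4, 121 and 216 on chow and 252, 449 and 593 on MCD (log2 1.81 ± 0.36, adjusted p = 0.0062). These 3 genes had separate ranges. The hour of tissue collection is not given for either diet.

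Several genes that act on the matrix and on neighbouring cells rose. Of 20 matrix proteases and inhibitors tested 5 rose, all 5 on leaving out each library, 0 fell, and the median was 0.75. Mmp14, a membrane-bound collagenase, had 554, 869.8 and 1208 on chow and 2171, 2769.6 and 3959 on MCD (log2 1.78 ± 0.20, adjusted p = 2.05e-05). Mmp13, a secreted collagenase, had 0, 33.5 and 57.2 on chow and 87.8, 248 and 497 on MCD (log2 4.06 ± 0.92, adjusted p = 0.0163). Its log2 difference was 2.11 in the first set of libraries and 6.00 in the second. Mmp19 had 224, 259 and 626 on chow and 608, 718 and 917 on MCD (log2 1.37 ± 0.26), where chow library 1 lay above the lowest MCD library. Plaur, the urokinase receptor that focuses plasmin at the cell surface, had 402, 565 and 673 on chow and 1437, 1788 and 2593 on MCD (log2 1.74 ± 0.20, adjusted p = 2.93e-05), with no overlap.

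The promoter of Plaur is shown for the AP-1 motif TGANTCA, searched on both strands. A part of AP-1 in the rise of Plaur was not tested. RefSeq (GRCm38.p6, plus strand, chr7:24462233-24462482) gives 1 match 69 bases before the start, in capitals.
Plaur: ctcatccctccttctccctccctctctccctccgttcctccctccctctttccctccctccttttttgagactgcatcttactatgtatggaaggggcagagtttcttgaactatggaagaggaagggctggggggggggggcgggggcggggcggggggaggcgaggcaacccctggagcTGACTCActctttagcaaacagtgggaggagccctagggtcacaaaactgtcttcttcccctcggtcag
TGANTCA was in 8.92% of the promoters of genes that rose, 10.4% of those that fell and 5.05% of all genes tested and matched. Among lipid-associated macrophage genes that rose it was in the promoters of Gpnmb, Itgax and Trem2, 3 of 9 matched.

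Of 22 integrins and adhesion genes 5 rose, 1 fell, and the median was 0.37. Itga5, the fibronectin receptor chain, had 600.4, 1049 and 1699 on chow and 2677, 2968 and 3101 on MCD (log2 1.51 ± 0.23, adjusted p = 0.000578). Vcam1, an adhesion ligand for leukocytes, had 14634, 18435 and 27779 on chow and 30476, 37098 and 75155 on MCD (log2 1.11 ± 0.21, adjusted p = 0.0038). Icam1, another such ligand, had 4569, 5889 and 7474 on chow and 8712, 10407 and 22418 on MCD (log2 0.92 ± 0.20, adjusted p = 0.0133). In the last pair MCD_EmKCs 1 stood far above the other MCD libraries, and the differences were 1.67 and 0.55 for Vcam1 and 1.17 and 0.68 for Icam1 in the first and second sets. Itgb7, the gut-homing integrin chain, was the fall, with 855, 1351 and 2019 on chow and 193, 270.4 and 606 on MCD (log2 -2.16 ± 0.28, adjusted p = 0.000112). Itga5, Vcam1, Icam1 and Itgb7 each had separate ranges.

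Growth factor genes had 5 rises and 0 falls among 18 tested, and 16 were positive (median 0.42). Ccn1, a matricellular protein, had 217, 666 and 1446 on chow and 2083, 2386 and 2594 on MCD (log2 2.06 ± 0.33, adjusted p = 0.00129), with separate ranges. Bmp2, a bone morphogenetic protein that raises hepcidin in the liver, had 65.9, 149 and 378 on chow and 349.5, 492 and 797 on MCD (log2 1.62 ± 0.38, adjusted p = 0.0185), with a slight overlap. Bmp2 is also a marker of liver sinusoidal endothelial cells, whose list had 3 rises of 15 and 0 falls, the others being Lyve1 (log2 2.58 ± 0.44, adjusted p = 0.00183) and Kdr (log2 2.05 ± 0.55, adjusted p = 0.0413). Kdr lost its call without Chow_EmKCs 1, 3, 5 or 6 or without any MCD library but 1, with adjusted p up to 0.104. The 3 rises of the endothelial list were 20% of it, against 2.21% of all genes tested, and 11 of the 15 were positive. Its median log2 fold change was 0.59 (0.74 in the first set of libraries and 1.15 in the second). The summed endothelial markers took 0.0441 to 0.0612% of reads on chow and 0.0441 to 0.0695% on MCD (exact permutation p = 0.333). Their part in the Bmp2 difference was not tested.

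Lipid mediator genes moved both ways, with 3 rises and 3 falls of 22. Ptgis, prostacyclin synthase, had 1262, 1437 and 2546 on chow and 359.6, 439 and 523 on MCD (log2 -1.86 ± 0.21, adjusted p = 1.94e-05). In a model over all 19 libraries of the series its adjusted p was 0.166, at the same fold change. Hpgd, which inactivates prostaglandins, had 8378, 10866 and 12692 on chow and 5531, 6869 and 7476 on MCD (log2 -0.67 ± 0.13, adjusted p = 0.0057). Pla2g7, which hydrolyses platelet-activating factor, had 9225, 9656 and 12038 on chow and 15579, 17898 and 19718 on MCD (log2 0.84 ± 0.11, adjusted p = 0.000221). The ranges of these 3 genes were separate. Among 22 complement genes 17 were negative, 2 rose (9.09%, against 2.21% of all genes tested) and 1 fell (4.55%, against 1.68%). Itgax, which is also a complement receptor chain, and C5ar1, the C5a receptor, rose (C5ar1 log2 0.84 ± 0.17, adjusted p = 0.0077), and C4b, a complement component, fell (log2 -0.76 ± 0.16, adjusted p = 0.0104).

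**Figure D4:**
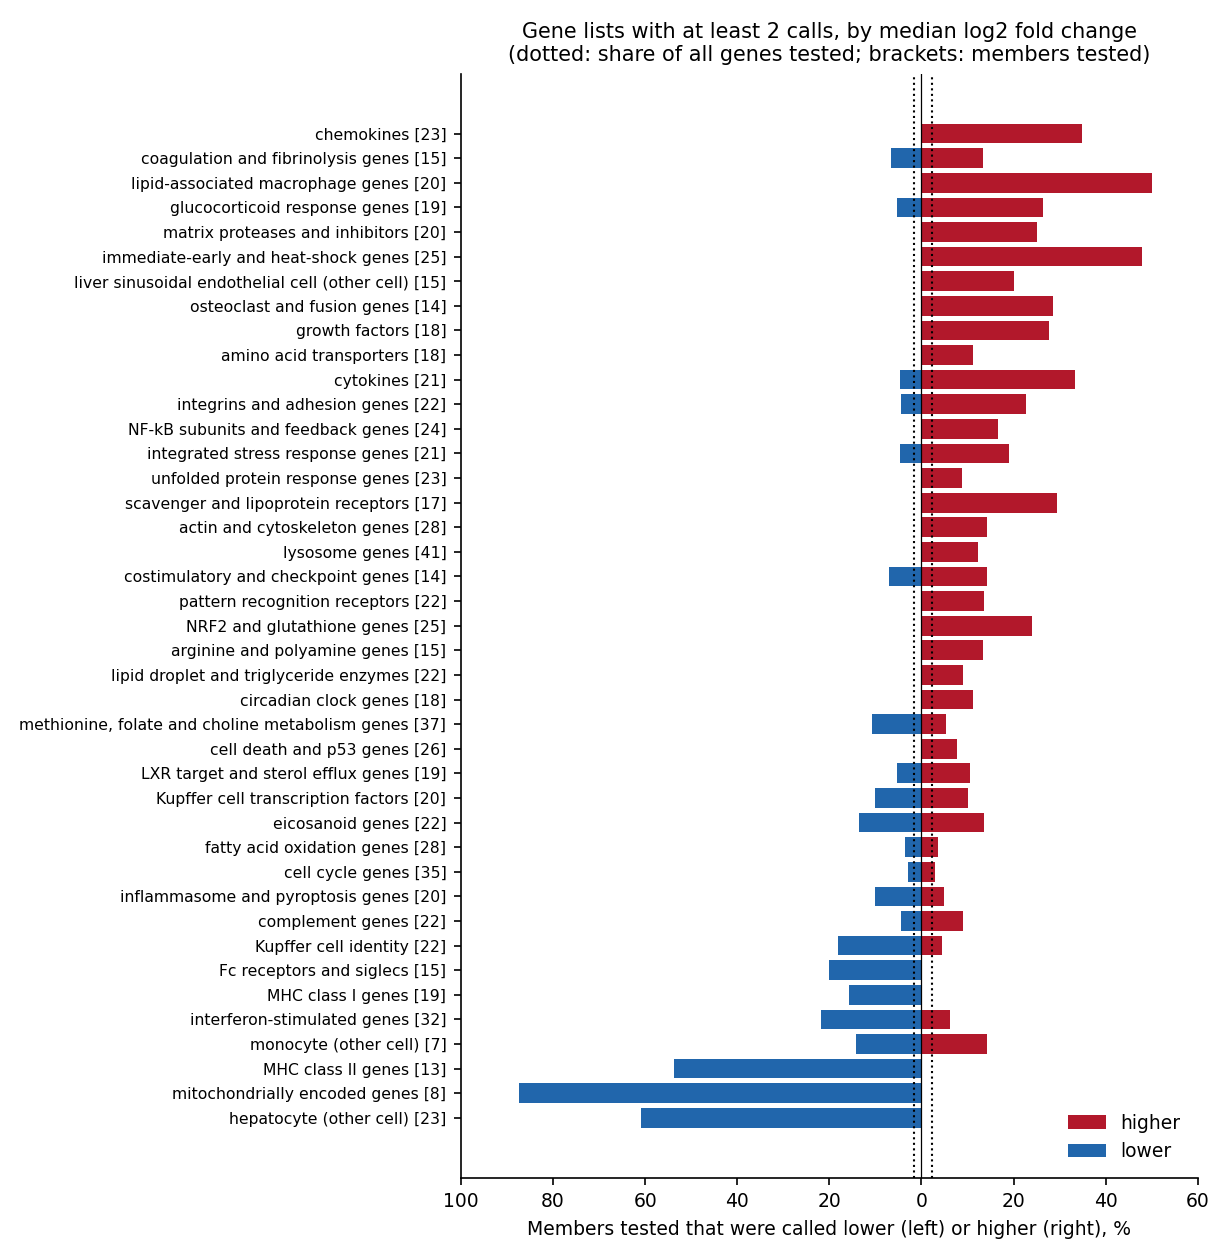
Each row is 1 gene list with at least 5 members tested and at least 2 called, ordered by median log2 fold change, with the number tested in brackets. Bars give the percent of members that rose (red, right) or fell (blue, left), and the dotted lines mark 2.21% and 1.68%, the shares over all genes tested. Lipid-associated macrophage, immediate-early and chemokine genes lie far to the right, and mitochondrially encoded, hepatocyte and MHC class II genes far to the left.

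Without MCD_EmKCs 1 and 2, the rises that still passed were 9 of 10 for lipid-associated macrophage genes, 10 of 12 for immediate-early genes, 6 of 8 for chemokines, 5 of 5 for matrix proteases, 5 of 6 for NRF2 genes and 4 of 5 each for lysosome, scavenger receptor and adhesion genes. They were 4 of 7 for cytokines, 3 of 4 for the integrated stress response, 3 of 5 for growth factors, 2 of 3 for pattern recognition receptors, 2 of 4 for NF-kB genes and 2 of 5 for glucocorticoid response genes. They were 1 of 4 for fusion genes, 1 of 3 for eicosanoid genes, 1 of 2 for costimulatory genes, 0 of 2 for LXR targets, 0 of 2 for amino acid transporters and 0 of 1 each for cholesterol and fatty acid synthesis. Among those lost, Slc7a5, Dcstamp, Csf3, Tnip3 and Egr3 were below the filter on low values with fewer MCD libraries and were not tested. Of the falls, 7 of 7 mitochondrially encoded genes, 13 of 14 hepatocyte markers, 4 of 4 Kupffer cell identity genes, 3 of 3 eicosanoid genes, 2 of 3 class I genes, 2 of 3 Fc receptors and siglecs, 3 of 7 interferon-stimulated genes and 1 of 4 methionine and choline genes still passed.

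Of 13 MHC class II genes tested 7 fell, all 7 on leaving out each library and all 7 without MCD_EmKCs 1 and 2, 0 rose, and the median was -1.27 (-1.19 in the first set and -1.23 in the second). Among the chains that bind peptide, H2-Ab1 (chromosome 17, 34257689 to 34269419) had 52542, 69532 and 100656 on chow and 17815, 20162 and 23862 on MCD (log2 -1.79 ± 0.14, adjusted p = 1.76e-07). H2-Aa, its partner (chromosome 17, 34282744 to 34287823), had 20124, 29362 and 36170.3 on chow and 7229, 7723 and 12283 on MCD (log2 -1.78 ± 0.16, adjusted p = 1.29e-06). H2-Eb1 (chromosome 17, 34305867 to 34316674) had 17563, 22619 and 34117 on chow and 5289, 6133 and 8066 on MCD (log2 -1.92 ± 0.15, adjusted p = 2.49e-07). No MCD library reached the lowest chow library for any of the 3.

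Genes whose products load those chains fell as well. Cd74, the invariant chain, had 124305, 160882 and 206771 on chow and 46065, 66334 and 92918 on MCD (log2 -1.27 ± 0.15, adjusted p = 3.51e-05). The peptide exchange factors H2-DMa (log2 -1.18 ± 0.17) and H2-DMb1 (log2 -1.21 ± 0.17) fell by like amounts. Ciita, the transactivator of all these genes, had 724, 1102 and 1756 on chow and 141, 461 and 618 on MCD (log2 -1.61 ± 0.33, adjusted p = 0.0077). All 4 had separate ranges.

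The promoters of H2-Aa and H2-Eb1 are shown because CIITA is known to act on a shared block of motifs just before the start of class II genes, of which the Y box CCAAT is the simplest to search. The letters were searched on both strands, so ATTGG is the same match, in capitals (RefSeq, GRCm38.p6). H2-Aa lies on the minus strand (chr17:34287824-34288073) with 1 match 48 bases before the start, and H2-Eb1 on the plus strand (chr17:34305617-34305866) with 2, beginning 59 and 35 bases before it.
H2-Aa: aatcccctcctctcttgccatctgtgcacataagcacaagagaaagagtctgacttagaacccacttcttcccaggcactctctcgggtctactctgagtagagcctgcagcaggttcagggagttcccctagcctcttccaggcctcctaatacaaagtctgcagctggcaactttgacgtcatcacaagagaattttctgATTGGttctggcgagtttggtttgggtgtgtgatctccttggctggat
H2-Eb1: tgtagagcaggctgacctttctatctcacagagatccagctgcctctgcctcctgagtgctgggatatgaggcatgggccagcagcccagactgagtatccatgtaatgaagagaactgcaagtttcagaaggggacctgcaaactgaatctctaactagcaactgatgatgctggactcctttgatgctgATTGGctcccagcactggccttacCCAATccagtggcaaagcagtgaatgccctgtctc
The Y box was in 3 of the 4 class II genes that fell and had a matched promoter. It is common, at 38.8% of all genes tested and matched, 39.9% of those that rose and 39.9% of those that fell.

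Dendritic cells and monocytes express class II genes too, and the summed share of reads of either marker list was lower on MCD. The dendritic list took 0.0195 to 0.0318% of reads on chow and 0.0146 to 0.0223% on MCD (exact permutation p = 0.013, adjusted 0.039). Of its 11 genes 7 were tested, and 0 rose or fell with limma, edgeR or DESeq2, with 2 at an unadjusted p under 0.05. The monocyte list took 0.0475 to 0.0629% and 0.0356 to 0.0476% (exact permutation p = 0.00433, adjusted 0.0162), and of its 7 genes tested Plac8 fell (log2 -1.001 ± 0.17) and Itgax rose. The other 8 monocyte markers had too few reads to be tested and differed in direction. Summed over 6 libraries, Ly6c2 had 50 reads on chow and 0 on MCD, Ace 102 and 35, Cd177 3 and 0 and Ly6c1 2 and 0. Ccr2 had 58 on chow and 300 on MCD, F13a1 30 and 163, Chil3 36 and 145 and Vcan 0 and 5. The part of either cell type in the class II difference was not tested.

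Of 19 class I genes tested 14 were negative, 3 fell, 0 rose, and the median was -0.50. The fall that passed on leaving out each library was H2-T23, the non-classical gene Qa-1, with 8408, 11595 and 14447 on chow and 5252, 5448 and 6531 on MCD (log2 -0.996 ± 0.15, adjusted p = 0.000534). H2-T genes are close copies of one another, so its counts are uncertain. The classical genes H2-K1 (log2 -0.29 ± 0.11, adjusted p = 0.199) and H2-D1 (log2 -0.14 ± 0.12, adjusted p = 0.59) did not pass.

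Of 32 interferon-stimulated genes tested 23 were negative, 7 fell, 2 rose, and the median was -0.50. Ifi27l2a had 5633, 9976 and 14956 on chow and 3263, 4243 and 6039 on MCD (log2 -1.17 ± 0.21), with some overlap. Oas1a, a sensor of double-stranded RNA, fell with separate ranges (log2 -0.73 ± 0.16, adjusted p = 0.0133). On leaving out each library 3 of the 7 falls passed, these 2 among them. Oasl1, an inhibitor of Irf7 translation, went up, with 2215, 2737 and 2982 on chow and 4531, 6075 and 10485 on MCD (log2 1.24 ± 0.18, adjusted p = 0.000573) and no overlap.

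Of 22 Kupffer cell identity genes tested 4 fell, 1 rose (Marco), and the median was -0.20. Cd207, langerin, had 7522, 9205 and 10357 on chow and 1899, 2586 and 2919 on MCD (log2 -1.85 ± 0.14, adjusted p = 1.47e-07), the lowest test statistic of all genes that the naming rule took. Folr2, a folate receptor, had 8994, 15207 and 19630.0 on chow and 6302, 7266 and 9069 on MCD (log2 -0.96 ± 0.18, adjusted p = 0.00417). Clec4f, the lectin found on Kupffer cells, had 197363, 211824 and 260533 on chow and 150476, 158092 and 162762 on MCD (log2 -0.47 ± 0.09, adjusted p = 0.00451). Lyz2, lysozyme, had 94821, 136871 and 175904 on chow and 67851, 78761 and 97505 on MCD (log2 -0.78 ± 0.14, adjusted p = 0.00307). The ranges of Cd207 and Clec4f were separate, those of Lyz2 overlapped slightly, and those of Folr2 met at their edges. Pilrb1, an activating paired receptor of myeloid cells, was 1 of 3 falls among 15 Fc receptors and siglecs, with 4558, 5183 and 6077 on chow and 2070.0, 2535 and 2926 on MCD (log2 -1.08 ± 0.14, adjusted p = 9.8e-05).

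By reads lost, the 8 leading genes were Cd74, Clec4f, Lyz2, H2-Ab1, H2-Aa, H2-Eb1, Ly6e and Trf. Ly6e, an interferon-inducible surface protein, had 19223, 27148 and 39584 on chow and 16074, 17946 and 21225 on MCD (log2 -0.62 ± 0.16, adjusted p = 0.03). Its call was lost without Chow_EmKCs 1, 2 or 3 or MCD_EmKCs 1, 4, 5 or 6, with adjusted p up to 0.0731. Trf, transferrin, had 24711, 31844 and 36958 on chow and 20637, 22059.9 and 24107 on MCD (log2 -0.50 ± 0.12, adjusted p = 0.019), and lost its call without Chow_EmKCs 1 or 6 or MCD_EmKCs 4 (adjusted p up to 0.0524).

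Of 8 protein-coding genes of the mitochondrial genome tested 7 fell, all 7 on leaving out each library and without MCD_EmKCs 1 and 2, and the median was -1.45. Complex I subunit mt-Nd2 had 5275, 7506 and 14306 on chow and 1243, 2001 and 3116 on MCD (log2 -1.995 ± 0.23, adjusted p = 2.69e-05). Complex III subunit mt-Cytb had 17406, 26929 and 43007 on chow and 7001, 9169 and 11304 on MCD (log2 -1.59 ± 0.19, adjusted p = 3.51e-05). Complex IV subunit mt-Co1 had 13388, 27133 and 37586 on chow and 9103, 10833 and 14300.3 on MCD (log2 -1.23 ± 0.20, adjusted p = 0.00121), with a slight overlap. The other complex I genes had log2 fold changes of -1.61 (mt-Nd4), -1.32 (mt-Nd5), -1.24 (mt-Nd1), -1.22 (mt-Nd6) and -2.76 (mt-Nd3, adjusted p = 0.12, not past the threshold). The ribosomal RNAs mt-Rnr2 (log2 -1.64 ± 0.17) and mt-Rnr1 (log2 -1.77 ± 0.27) fell too. The 5 remaining protein genes were below the filter on low values, and nuclear copies of mitochondrial sequence may take reads from this genome.

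None of the nuclear partner genes listed passed. Of 33 nuclear respiratory chain genes and 19 mitochondrial DNA expression factors, 0 rose and 0 fell with limma, with medians of -0.22 and -0.13. At the 2.21% and 1.68% of all genes tested that rose and fell, lists of this size would hold few calls. Negative fold changes were seen for 26 and 14 of them. An unadjusted p under 0.05 was seen for 6 and 1 of them, edgeR called 0 in both lists, and DESeq2 called 1 and 0. All mitochondrial genes together took 0.736 ± 0.211% of library reads (SD, n = 6) on chow and 0.245 ± 0.0535% (n = 6) on MCD, with ranges of 0.511 to 1.05% and 0.155 to 0.317% (exact permutation p = 0.00216, adjusted 0.0108). The difference was -0.528 percentage points in the first set and -0.454 in the second. Ribosomal protein genes took 0.328 ± 0.0999% (n = 6) and 0.262 ± 0.0514% (n = 6), within the spread of the libraries (exact permutation p = 0.165). Of 35 such genes and of 26 proteasome genes tested, 0 rose and 0 fell with limma, 2 and 0 had an unadjusted p under 0.05, and edgeR and DESeq2 called 0.

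**Figure D5:**
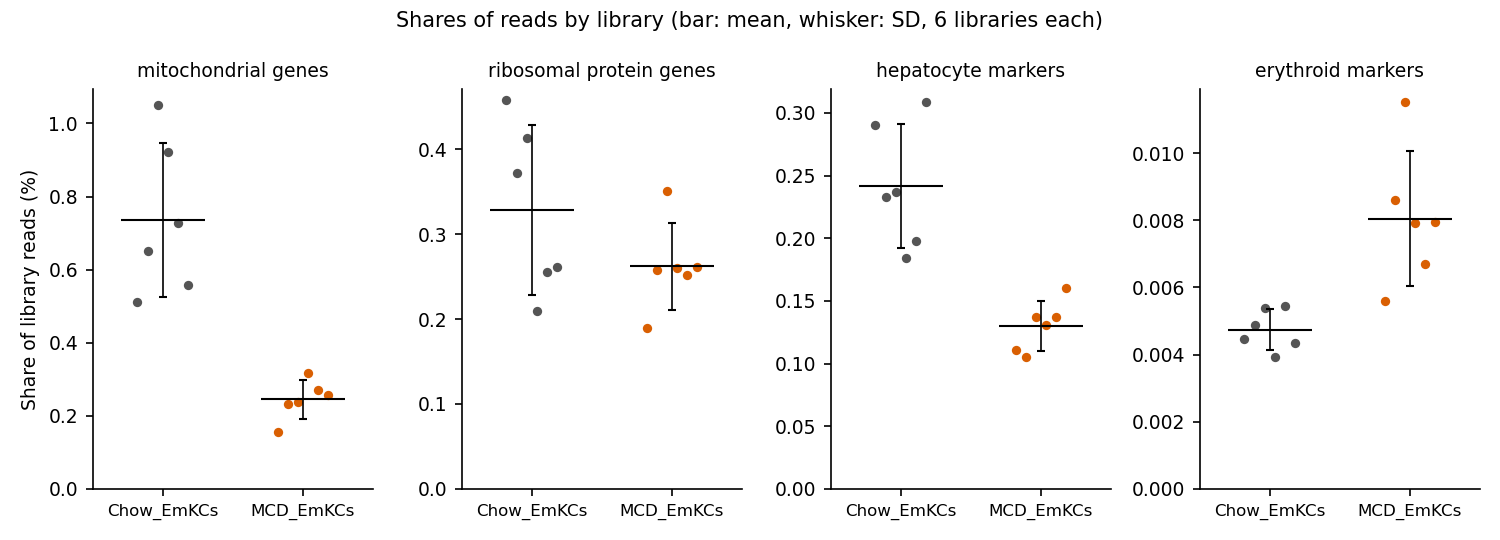
Percent of each library's reads (y axes from 0) on mitochondrial genes, ribosomal protein genes, hepatocyte markers and erythroid markers in Chow_EmKCs (grey) and MCD_EmKCs (orange). The bar is the mean and the whisker the SD of 6 libraries. Mitochondrial and hepatocyte shares of the MCD libraries lie wholly below those on chow, erythroid shares wholly above, and the ribosomal protein shares overlap. Trf, also a Kupffer cell gene, makes up most of the hepatocyte share.

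Erythroid markers, the third list whose share separated the diets, took 0.00392 to 0.00546% of reads on chow and 0.0056 to 0.0115% on MCD (exact permutation p = 0.00216, adjusted 0.0108), while 0 of its 6 genes tested rose or fell with limma (2 at an unadjusted p under 0.05, 0 with edgeR and 1 with DESeq2). Of 35 cell cycle genes 1 rose and 1 fell (2.86% each), with a median of -0.09. Glycolysis and hypoxia genes had 1 rise among 28 and autophagy genes 1 among 28 (3.57% each), and neither list had a fall. These shares are near the 2.21% and 1.68% of all genes tested.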

How the data were processed

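RNA-seq values were analysed in 6 Chow_EmKCs and 6 MCD_EmKCs libraries, grouped by their labels. The deposited values are a signal, reads per gene scaled by the authors. STAR, DESeq2 and mm10 are named in the submitters' processing notes. The counter, its annotation and its use of strand were not given in the sources used here. All columns matched a sample, and 100% of values were whole reads within 0.001 read once divided by each library's scale, which gave back the reads behind the 15190337 to 27401870 per library. Identifiers (33919) were matched to GENCODE vM21, 29062 with a symbol.

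Log2(value + 1) of the 13740 genes that reached 10 normalised reads in 6 or more libraries was tested in limma 3.58.1 (R 4.3.3) at a Benjamini-Hochberg adjusted p under 0.05. The deposited values are not counts, so edgeR 4.0.16 and DESeq2 1.42.0 on the recovered reads were alternatives, and edgeR called 265 genes higher and 192 lower. Shares of reads were compared by two-sided exact permutation tests, adjusted over 15 shares. Genes named are the 10 highest and 10 lowest test statistics, the 8 largest rises and falls in mean, up to 4 called members per list and direction, mitochondrial genes, sort genes and examples of a count. A gene that this rule takes is not reported here. The members and lists were chosen with earlier results of these data known. The fits were tested on simulated data. Smart-seq reads have no molecular identifiers, so repeated reads of a molecule are counted. Other pseudocounts, filters, scalings, models and sets of libraries were tried.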

Additional observations from a re-analysis of the deposited data

Results flagged for a closer look

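In 29 of 304 groups of 6 libraries examined, 1 library lay far from the other 5 by Dixon's criterion on the gap to the nearest. Chance alone marks about 1 group in 20.

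Among Chow_EmKCs libraries, library 1 was high for Mmp19 (626 normalised reads, the nearest library 264), Ccl7 (255) and Tnfsf9 (153). Library 6 was high for Lgmn (62227, the nearest 44806), Spp1 (52.5) and Mrgpre (101.6, the nearest 2.97). Library 3 was high for Apoe (1239700.0, the nearest 812423). Library 2 was high for Ocstamp (72.0) and library 5 for Slc7a5 (21.9).

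Among MCD_EmKCs libraries, library 1 was marked most often. It was high for Vcam1 (75155 normalised reads, the nearest library 45219), Icam1 (22418, the nearest 10930.4), Il1a (15894), C4b (19110.2), Sort1 (527) and Gla (2834, the nearest 963). It was low for Ier2 (13021, the nearest 18577), Gusb (4828, the nearest 6193) and Srm (627, the nearest 1041). Library 2 was high for Dcstamp (368, the nearest 149.98) and mt-Rnr1 (1235, the nearest 670.5) and low for Itga5 (2677).

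MCD_EmKCs 3 was high for H2-Aa (12283 normalised reads, the nearest library 8173), H2-T23 (6531), Plin2 (13493), Cd63 (1788) and its pseudogene Cd63-ps (679). B and plasma cell markers took 0.0118% of its reads, the nearest library having 0.00317%. Library 5 was high for Atp6v1b2 (8538) and library 6 for Alb (1704, the nearest 329.9).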

How the results depend on the processing

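With other pseudocounts, filters, TMM scaling, edgeR, a model of all 19 libraries or a term for the set of library numbers, 248 to 372 genes were higher and 192 to 274 lower, each within 1.5 times the 304 and 231 reported. DESeq2 called 474 higher. The libraries numbered up to 33 alone gave 72 higher and 42 lower, and those from 37 gave 129 and 108, with fewer samples in each. Without MCD_EmKCs 1 and 2, an alternative chosen after seeing the data, 198 were higher and 177 lower. Leaving out 1 library at a time gave 217 to 302 higher and 144 to 233 lower, the lowest count of falls being without Chow_EmKCs 1. Genes called higher made up 50.2 to 61.9% of calls in those fits and 56.8% in the reported one. The test of a difference between the sets gave 157 genes with DESeq2 and 0 to 79 on leaving out 1 library, where the count was 1 without MCD_EmKCs 2, and the cause was not tested. Within the sets, the mitochondrial share differed by -0.5284 and -0.4537 percentage points and the hepatocyte share by -0.1356 and -0.08772, where an exact permutation test of 3 against 3 libraries cannot go below 0.1 and so cannot pass.

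Of the 126 genes named and called, 116 passed in every fit on leaving out 1 library that tested them. In every alternative but the 2 sets that tested them, 108 passed, and 45 did so with the sets included. A gene below the filter on low values in a fit was not counted as lost there. Without MCD_EmKCs 1 and 2, 122 of the 126 were tested, and 124 on leaving out each MCD library in turn. The 3 named genes that changed direction had not passed. The log2 fold change of Apoe was -0.11 in the first set and from -0.04087 to 0.1616 on leaving out 1 library. The log2 fold change of Il1b was 0.0026 without MCD_EmKCs 1 and 2 and from -0.1985 to 0.09385, and the log2 fold change of Fos was -0.0264 in the second set and from -0.04108 to 0.0788. The labels used here do not say whether replicate numbers pair the samples. Correlations of same-numbered deviations ran from -0.0377 to 0.098, with 1 of 6 libraries closest to its own number. Low correlations cannot exclude a pairing by cage or sort. With the replicate block 305 genes were higher and 233 lower. Depth limits genes with few reads, such as Dcstamp, whose fold is a lower bound.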

Other observations

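Several gene groups outside the comparisons above had 4 calls or fewer. Over all genes tested, 2.21% rose and 1.68% fell. Of 28 actin and cytoskeleton genes, 4 rose (14.3%, and 1 without MCD_EmKCs 1 and 2) and 0 fell (median log2 fold change 0.17). The rise that passed on leaving out each library was Tubb6, a beta-tubulin. Tubb6 had 663, 1077 and 1413 normalised reads on chow and 1649, 2013 and 2626 on MCD (log2 0.93 ± 0.19, limma adjusted p = 0.00758). Of 26 cell death and p53 genes, 2 rose (7.69%) and 0 fell. Cdkn1a, the cell cycle inhibitor p21, had 448, 694 and 989.6 on chow and 1053, 1359.6 and 1498 on MCD (log2 0.97 ± 0.22, limma adjusted p = 0.017), and passed on leaving out each library.

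Iron and heme genes had 0 rises and 1 fall (Trf) among 24, and BMP, TGF-beta and Notch response genes 1 rise and 0 falls among 25. The 7 MS4A family genes tested had 0 rises and 0 falls with limma, edgeR or DESeq2, 0 members at an unadjusted p under 0.05 and a median of -0.18. TATAAA, searched on both strands, was in 12.2% of promoters of genes that rose, 17.2% of those that fell and 7.09% of all genes tested and matched.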
